A study of Homo sapiens with 12 samples.

Results

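The RFX family is a set of transcription factors named for a shared winged-helix DNA-binding domain that reads the X-box, a short DNA element. The members described here were the rows of the authors' 4 result tables whose gene name is RFX1, RFX2, RFX3, RFX5 or RFX7. These are 5 of the 8 human RFX genes, RFX4, RFX6 and RFX8 not being listed, and 5 of the 23195 genes listed in each Nutlin-3a table. All 5 were also listed in the siRFX7 tables of 20026 genes in DMSO and 19393 genes in Nutlin-3a. They were taken by name and not by any measured value.

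PolyA RNA was sequenced from HCT116, an established line of human colorectal carcinoma cells whose p53 is intact. Every group was transfected, either with siControl, a control siRNA, or with siRFX7, which targets RFX7. Each was then exposed for 24 h to 10 µM Nutlin-3a, an MDM2 inhibitor that stabilises p53, or to the solvent DMSO. Each siRNA was combined with each treatment, which gave 4 groups of 3 libraries each. The labels give neither the siRNA sequences nor their number, and they do not say whether the libraries of a group came from separate cultures, so the errors below may be technical. All 4 groups come from 1 cell line.

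RFX5 is the DNA-binding subunit of a complex with RFXAP and RFXANK that sits on the promoters of MHC class II genes, and also of class I genes, and the loss of any of these subunits causes the bare lymphocyte syndrome. RFX1, RFX2 and RFX3 carry a dimerisation domain and are best known for driving genes of the cilium. RFX7 lacks that domain and is related in its DNA-binding domain to RFX5. It has been described as a factor that acts downstream of p53 on genes that restrain growth.

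The tables hold group statistics, so the level of each member is given as a group mean on the scale of normalized counts (counts divided by the authors' size factors), computed from the authors' deposited mean and fold changes. Each interval is the 95% model interval of that mean. Values per library are not in the tables used here. As solved from the deposited standard errors, the spread between libraries in the authors' model, beyond counting, was 5.13% (RFX1) to 7.46% (RFX3). This is a fitted value, and the observed spread between the libraries is not known here. A gene is called changed where the authors' DESeq2 test gave it an adjusted p below 0.05. The group means summed over genes came to 25915992 to 27407526 normalized counts. Since size factors are divided out, the depth of each library is not known from them. As a check of the treatment, MDM2 went from 4705 to 74982 normalized counts with Nutlin-3a in siControl and from 6590.5 to 64905.5 in siRFX7. The siRFX7 log2 fold changes of MDM2, as deposited by the authors, were 0.49 in DMSO and -0.21 in Nutlin-3a (DESeq2 adjusted p 1.19e-12 and 0.00456). Its Nutlin-3a response thus differed between the siRNAs, by -0.69 (z test adjusted p 1.90e-12). The epithelial markers EPCAM, KRT8, KRT18, KRT19 and CDH1 had means of 2585 to 80340 normalized counts. VIL1, also an epithelial marker, had a mean of 8.0. Of 10 markers of leukocytes, fibroblasts and endothelium, PTPRC, CD3E and PECAM1 were not listed, COL1A1 had a mean of 441 and the other 6 had means of at most 13.5 normalized counts. COL1A1 was called higher with siRFX7, by 0.36 (DMSO) and 0.52 (Nutlin-3a) on the log2 scale (DESeq2 adjusted p 0.00655 and 6.71e-05) per the authors' deposited tables. The summed level of CD79A, LYZ, COL1A1 and VWF, the 4 of these markers with a level in every group, was 421 normalized counts in DMSO and 371 in Nutlin-3a with siControl, and 537 and 520.2 with siRFX7. Without COL1A1 it was 20.5 to 21.9. Their part in the results was not tested.

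The stretch of DNA in front of RFX5 is shown first, since RFX5 is the member whose Nutlin-3a response differed between the siRNAs. It covers chr1:151347358-151347502 in GRCh38.p14, minus strand, from the RefSeq promoter table, with a GC content of 55.9%. The letters run towards the gene, so the last base adjoins the end of the GENCODE 29 gene model.
RFX5: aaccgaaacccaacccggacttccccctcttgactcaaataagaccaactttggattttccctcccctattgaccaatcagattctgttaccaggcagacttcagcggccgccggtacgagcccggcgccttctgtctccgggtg
It is printed in lower case throughout because neither X-box word searched, GTTGCCA or GTTGCTA, occurs in it on either strand. The same was true of all 3 RFX5 windows in that table, which reach from 250 bases before a transcript start to 50 after it. Among the 4 members with a window there, RFX1, RFX3, RFX5 and RFX7, the words were found for RFX1 alone. The RFX1 match has its first base 7 bases before the transcript start. The stretch shown is chr19:14006309-14006338, minus strand, with the matching word in capitals.
RFX1: actagggtgggTAGCAACagttgccccggt
Either word was present in 1 of the 8 windows of these 4 members, and in 6.75% of all 35116 windows of this length. A match is a description of letters. Only these exact words were searched, so other forms of the X-box in the same windows would be missed. The absence of a match says nothing of binding, in these windows or elsewhere.

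RFX7 was the siRNA target and checks the labels. It lies on chromosome 15 from 56087280 to 56243266 on the minus strand (ENSG00000181827, GRCh38). Its level was 944 normalized counts in siControl DMSO (874 to 1019) and 1332 in siControl Nutlin-3a (1237 to 1434), computed from the authors' deposited tables. With siRFX7 it was 185 in DMSO (166 to 205) and 302 in Nutlin-3a (275 to 331). The siControl and siRFX7 intervals did not overlap in either treatment. In bulk RNA a lower level in every cell and the loss of a gene's RNA from some of the cells cannot be told apart. siRFX7 left 19.6% of the control level in DMSO (95% interval 17.2% to 22.3%) and 22.6% in Nutlin-3a (20.1% to 25.5%), from the authors' deposited log2 fold changes of -2.35 and -2.14. Among the 12463 genes with a mean of at least 100 normalized counts, RFX7 had the lowest log2 fold change in DMSO, rank 1, and rank 12 in Nutlin-3a.

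Nutlin-3a raised RFX7 under both siRNAs, 1.41-fold under siControl (1.27 to 1.57) and 1.63-fold under siRFX7 (1.42 to 1.88), per the authors' deposited tables. The difference between these responses was 0.21 on the log2 scale, with a 95% interval from -0.05 to 0.47 (two-sided z test, adjusted p 0.462 over 23195 genes). All 4 levels of RFX7 were separated. The nearest pair across the siRNAs was siControl DMSO and siRFX7 Nutlin-3a, where the latter was lower by a log2 difference of -1.65 (-1.82 to -1.47). Thus the rise with Nutlin-3a in knockdown cells ended well below the level of unstressed control cells.

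**Figure D1:**
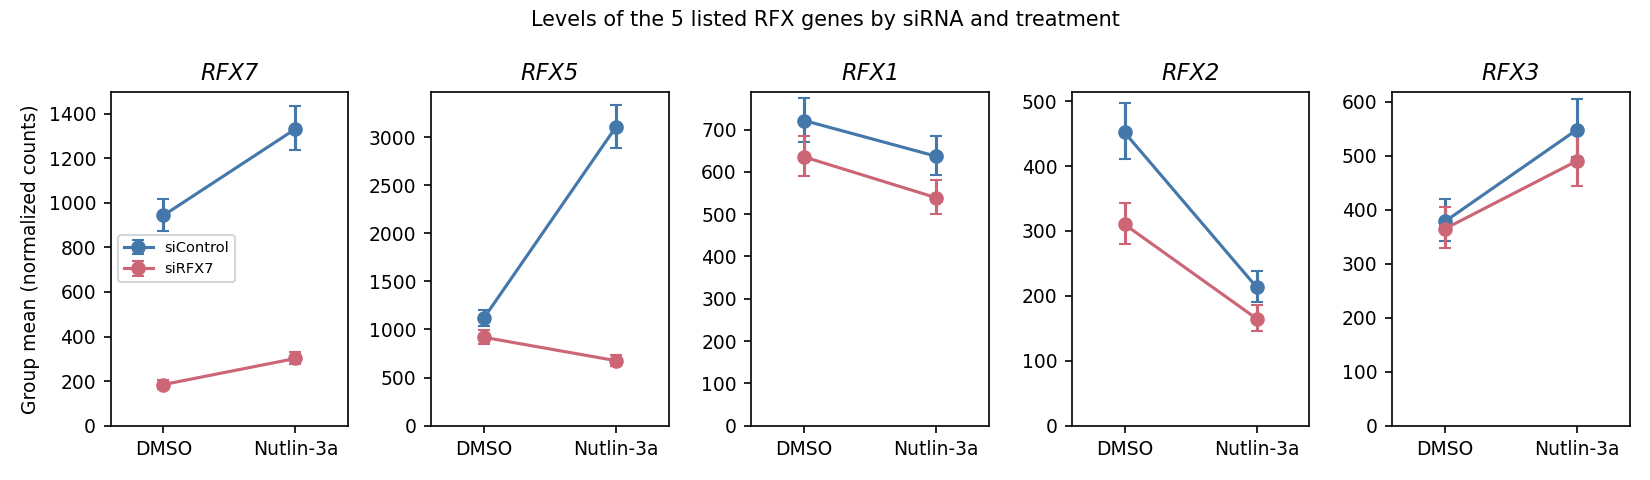
Group means in normalized counts (vertical axis, from 0, a separate scale for each gene) of the 5 RFX genes in DMSO and Nutlin-3a, in blue for siControl and red for siRFX7. Bars are 95% model intervals and each point stands for 3 libraries. RFX5 went from 1118 to 3104 in siControl and from 919 to 676 in siRFX7, while the lines of RFX1, RFX2 and RFX3 ran in the same direction under both siRNAs.

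RFX5 was the member whose Nutlin-3a response changed direction. The gene lies on chromosome 1 from 151340640 to 151347357 on the minus strand (ENSG00000143390, GRCh38). Its level was 1118 normalized counts in siControl DMSO (1036 to 1207), computed from the authors' deposited tables. It reached 3104 in siControl Nutlin-3a (2890.2 to 3334), and was the highest of its 4 group levels. It was 919 in siRFX7 DMSO (850.0 to 994) and 676 in siRFX7 Nutlin-3a (623.5 to 733). So the Nutlin-3a groups held both extremes, the highest level in control cells and the lowest in knockdown cells, with no overlap between the 2 Nutlin-3a intervals.

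In siControl the rise of RFX5 was 2.78-fold (2.50 to 3.08), a log2 fold change of 1.47 with standard error 0.08 (DESeq2 adjusted p 6.92e-80) per the authors' deposited table. In siRFX7 the log2 fold change was -0.44 with standard error 0.08 (DESeq2 adjusted p 4.70e-07) per the authors' deposited table. The difference between these responses was -1.92 (95% interval -2.14 to -1.69), and the z test gave an adjusted p of 1.26e-60. By the size of the z statistic RFX5 stood at rank 2 from the lowest among the 12463 genes with a mean of at least 100. Of 5107 genes called higher with Nutlin-3a in siControl, 25 were called lower with it in siRFX7, and RFX5 was among them. PNRC1, SESN3 and PIK3R3, which are on the list of RFX7 targets given below, were also among the 25, an observation made after their values were seen.

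siRFX7 lowered RFX5 in both treatments. In DMSO RFX5 kept 82.2% of its control level (73.7% to 91.7%; log2 fold change -0.28, DESeq2 adjusted p 0.00247) per the authors' deposited table. In Nutlin-3a it kept 21.8% (19.5% to 24.3%; log2 fold change -2.20, DESeq2 adjusted p 9.98e-164) per the authors' deposited table. The interval overlapped that of the siRNA target itself, which kept 22.6% (20.1% to 25.5%). The gap between the DMSO and Nutlin-3a effects equals the interaction above, -1.92, since the 4 tables share 1 fit. Among the 12463 genes with a mean of at least 100, RFX5 had rank 1985 from the lowest in DMSO and rank 8 in Nutlin-3a. The DMSO call did not survive a Bonferroni adjustment, where the adjusted p was 1. All neighbours in the order of the RFX5 levels were separated by a called difference. With siRFX7 and Nutlin-3a together RFX5 stood below the untreated control by a log2 difference of -0.73 (-0.89 to -0.56). RFX5 shares 358 of its 4586 exon bases with AL391069.1 and 93 with AL391069.3 on the other strand in GENCODE 29. AL391069.3 had a mean of 7.42 normalized counts and AL391069.1 was not listed, and whether counting used strand is not given in the sources used here.

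**Figure D2:**
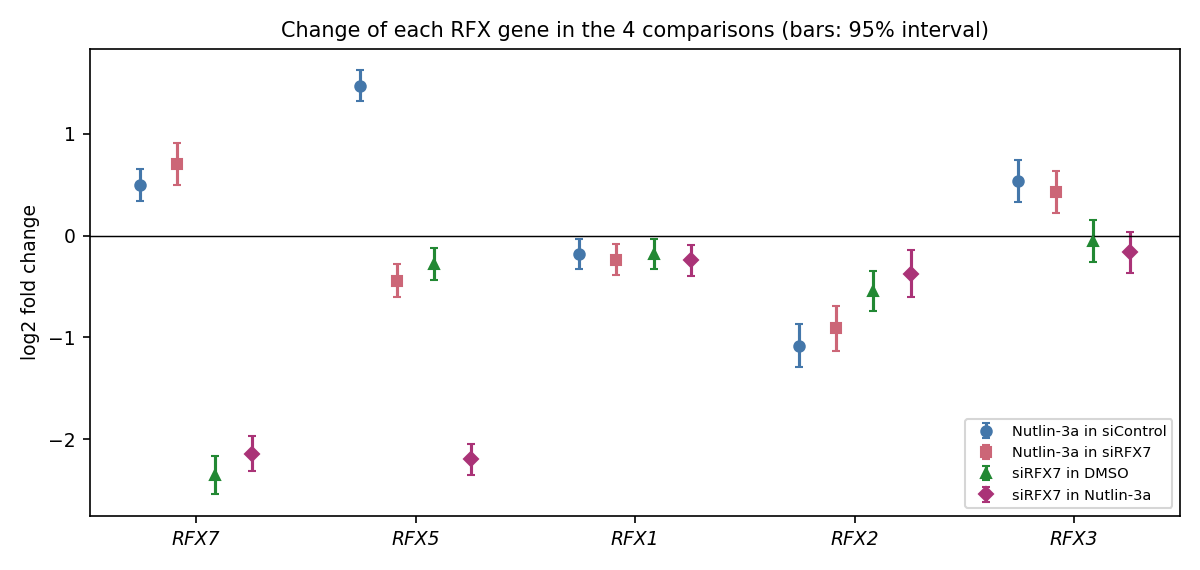
Log2 fold changes (vertical axis) of the 5 RFX genes in the 4 comparisons, from the authors' deposited tables, with 95% intervals as bars. For RFX5 the blue circle (Nutlin-3a in siControl, 1.47) and the red square (Nutlin-3a in siRFX7, -0.44) lie on opposite sides of 0, and the purple diamond (siRFX7 in Nutlin-3a, -2.20) lies beside that of RFX7 (-2.14).

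RFX1, RFX2 and RFX3, the members tied to ciliary genes, kept the direction of their Nutlin-3a response under both siRNAs. RFX2 (ENSG00000087903, chromosome 19 from 5993164 to 6199572, minus strand) fell the most with Nutlin-3a. In siControl its level was 452 normalized counts with DMSO (411 to 497) and 213 with Nutlin-3a (191 to 238). In siRFX7 it was 310.1 with DMSO (280.3 to 343) and 165 with Nutlin-3a (147 to 186). Both treated groups lay below both untreated groups, and within each treatment the siRFX7 group was the lower.

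The log2 fold change of RFX2 with Nutlin-3a was -1.08 in siControl and -0.91 in siRFX7 (DESeq2 adjusted p 6.50e-23 and 1.26e-14) per the authors' deposited tables. siRFX7 lowered RFX2 to 68.6% of control in DMSO (59.8% to 78.8%, DESeq2 adjusted p 1.20e-06) and to 77.3% in Nutlin-3a (65.7% to 90.8%, DESeq2 adjusted p 0.00883) per the authors' deposited tables. The latter call had an adjusted p of 1 under Bonferroni. The Nutlin-3a responses of RFX2 differed by 0.17 between the siRNAs (-0.14 to 0.48, z test adjusted p 0.704).

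RFX1 (ENSG00000132005, chromosome 19 from 13961538 to 14007039, minus strand) had the narrowest range of the family. In siControl it stood at 721 normalized counts with DMSO (671 to 775) and 637 with Nutlin-3a (592 to 685), and in siRFX7 at 635 (590.2 to 684) and 539 (499 to 581) respectively. The middle levels, siControl Nutlin-3a and siRFX7 DMSO, were not separated, with a log2 difference of -0.0035 (-0.15 to 0.15). The log2 fold change of RFX1 with Nutlin-3a was -0.18 under siControl and -0.24 under siRFX7 (DESeq2 adjusted p 0.0417 and 0.00652) per the authors' deposited tables. At a threshold of 0.01 the first of these calls was lost, and under Bonferroni both were. siRFX7 lowered RFX1 in Nutlin-3a, to 84.6% of control (76.1% to 94.1%, DESeq2 adjusted p 0.00967) per the authors' deposited table, a call also lost under Bonferroni. In DMSO the level was 88.1% of control (79.5% to 97.6%), with a DESeq2 adjusted p of 0.0511 per the authors' deposited table. Adjusted over genes with a mean of at least 10 normalized counts, that p was 0.0441.

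RFX3 (ENSG00000080298, chromosome 9 from 3218297 to 3526004, minus strand) was the ciliary member that rose with Nutlin-3a. Its siControl levels were 378 normalized counts with DMSO (341 to 419) and 548 with Nutlin-3a (497 to 604). Its siRFX7 levels were 365 with DMSO (329 to 404) and 490.2 with Nutlin-3a (444 to 541). The treated and untreated intervals did not overlap, whereas those of the siRNAs did within each treatment. The rise was 1.45-fold in siControl and 1.34-fold in siRFX7 (DESeq2 adjusted p 1.31e-06 and 0.000181) per the authors' deposited tables. The call in siRFX7 had an adjusted p of 1 under Bonferroni. For siRFX7 the log2 fold change of RFX3 was -0.05 in DMSO (-0.26 to 0.16) and -0.16 in Nutlin-3a (-0.36 to 0.04), with DESeq2 adjusted p of 0.777 and 0.254 per the authors' deposited tables.

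Set against all genes, calls with Nutlin-3a were frequent everywhere. All 5 members were called in siControl, 3 higher and 2 lower, where 43.2% of all genes were called, and all 5 in siRFX7, 2 higher and 3 lower, where 41.4% were. Genes called higher made up 22.0% of all genes under siControl and 21.7% under siRFX7, and genes called lower 21.2% and 19.7%. siRFX7 lowered 3 of the 5 in DMSO, where 29.0% of all genes were called and 15.5% called lower, and 4 of the 5 in Nutlin-3a, where 28.6% were called and 13.6% called lower. Genes called higher made up 13.5% in DMSO and 15.0% in Nutlin-3a. In each treatment RFX7, the target, is among them. The median log2 fold change of the other 4 members with siRFX7 was -0.23 in DMSO and -0.31 in Nutlin-3a, against -0.0032 and 0.0022 over all genes. With siRFX7, 0 of the 5 members were called higher by DESeq2, also at an unadjusted p below 0.05, and all had log2 fold changes below 0 in both treatments, except that RFX3 in DMSO turned to 0.0043 when groups were scaled to equal totals. The interaction, the difference of the Nutlin-3a responses, was called for RFX5 alone of the 5, below 0, against 6.20% of all genes, 2.92% below 0 and 3.28% above. When the siRFX7 effects of both treatments were averaged, the log2 change was -2.25 for RFX7, -1.24 for RFX5, -0.46 for RFX2 and -0.21 for RFX1 (z test adjusted p 1.33e-254, 7.66e-104, 4.55e-08 and 0.000408). For RFX3 it was -0.11 (-0.25 to 0.04, adjusted p 0.262), and 39.7% of all 19393 genes were called by that test.

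**Figure D3:**
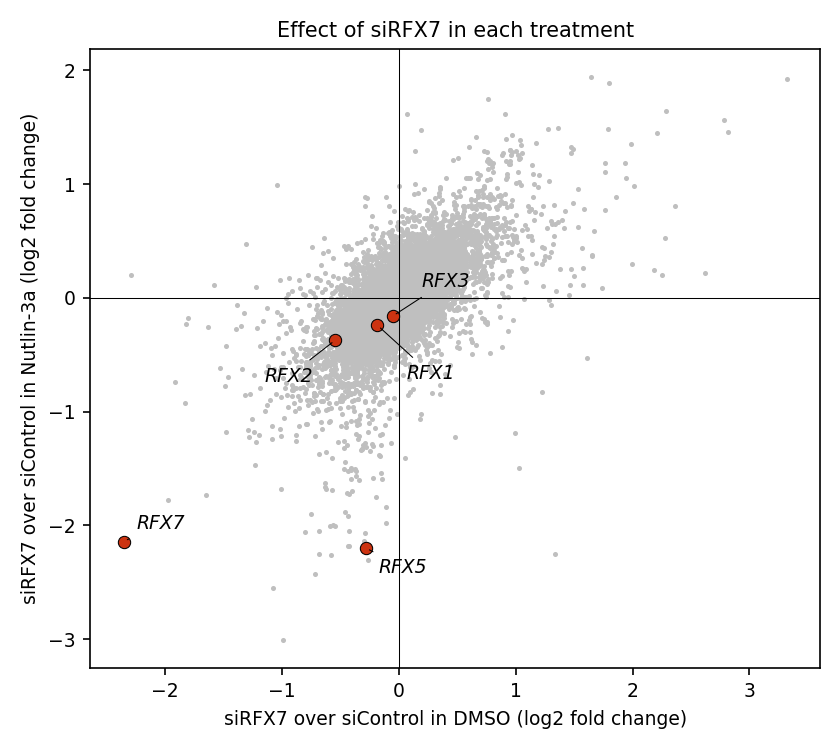
Log2 fold change of siRFX7 over siControl in DMSO (horizontal axis) and in Nutlin-3a (vertical axis), from the authors' deposited tables, for the 12463 genes with a mean of at least 100 normalized counts (grey) and the 5 RFX genes (red). RFX7 lies low on both axes, at -2.35 and -2.14, while RFX5 is near 0 on the horizontal axis, at -0.28, and at -2.20 on the vertical one.

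Levels were compared between members only per kilobase of merged exons, with lengths from GENCODE 29 that ran from 4586 bases for RFX5 to 11169 bases for RFX3. On this scale RFX5 was the most abundant member in every group, at 244 normalized counts per kilobase in siControl DMSO. RFX1 followed with 132, RFX7 with 89.1, RFX2 with 49.7 and RFX3 with 33.9. In siControl Nutlin-3a RFX5 stood at 677 per kilobase and made up 68.3% of the summed family level, against 44.5% in siControl DMSO and 43.8% in siRFX7 Nutlin-3a. RFX7 went from 16.3% of the family level in siControl DMSO to 4.35% in siRFX7 DMSO. The order of RFX7 and RFX2 depended on the length used. With the longest coding transcript, siControl DMSO gave 90.5 per kilobase for RFX7 and 113 for RFX2.

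Among the partners of RFX5 and RFX7, none had a called difference in Nutlin-3a response between the siRNAs. Over all genes 6.20% had one, so 0 of 9 is near that share. The list of 9 held RFXAP and RFXANK, the other subunits of the RFX5 complex; ANKRA2, an ankyrin-repeat relative of RFXANK known to bind RFX7; the MHC coactivators CIITA and NLRC5; the CCAAT-binding subunits NFYA, NFYB and NFYC; and CREB1. All 9 were listed. siRFX7 raised 1 and lowered 1 of them in each treatment, against 13.5% and 15.5% of all genes in DMSO and 15.0% and 13.6% in Nutlin-3a, shares that amount to about 1 gene of 9 each way. Its median log2 fold change was 0.08 with DMSO and 0.06 with Nutlin-3a per the authors' deposited tables. By the z test the interaction was called for 0 of the 9, and 1 of the 9, above 0, had an unadjusted p below 0.05.

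RFXANK rose with siRFX7 in DMSO, from 689 to 858 normalized counts, with a log2 fold change of 0.32 (DESeq2 adjusted p 0.00523) per the authors' deposited table. RFXAP went from 122 to 105 there, with a log2 fold change of -0.22 (DESeq2 adjusted p 0.44) per the authors' deposited table. With Nutlin-3a in siControl these subunits went apart, RFXANK rising by 0.55 and RFXAP changing by -1.18 on the log2 scale (DESeq2 adjusted p 5.89e-08 and 5.65e-08) per the authors' deposited table. Thus at the time RFX5 rose in control cells, 1 of its 2 partner subunits rose and the other fell.

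The log2 rise of ANKRA2 with Nutlin-3a was 1.95 under siControl and 1.93 under siRFX7 (DESeq2 adjusted p 2.52e-89 and 2.67e-93) per the authors' deposited tables. It went from 193 to 748 normalized counts under siControl and from 216 to 823 under siRFX7. The interaction of ANKRA2 was -0.03 (z test adjusted p 0.971), and its change with siRFX7 was called in neither treatment. NLRC5, the class I coactivator, rose with siRFX7 in Nutlin-3a from 94.8 to 159.5 normalized counts, a log2 fold change of 0.75 (DESeq2 adjusted p 2.25e-05) per the authors' deposited table. NFYB fell with siRFX7 in both treatments, by -0.24 in DMSO and -0.29 in Nutlin-3a on the log2 scale (DESeq2 adjusted p 0.0129 and 0.00945) per the authors' deposited tables. NFYA, NFYC and CREB1 had siRFX7 log2 fold changes between -0.13 and 0.08, none called, per the authors' deposited tables. CIITA, the class II master regulator, had a mean of 8.87 normalized counts and was called in none of the 4 comparisons.

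MHC genes, the textbook targets of the RFX5 complex, were counted in both classes. In Nutlin-3a, where RFX5 was low with siRFX7, 3 of 7 class I genes were called lower by DESeq2 and 0 higher, the same counts as at an unadjusted p below 0.05, with a median log2 fold change of -0.36 per the authors' deposited table. Over all genes 13.6% were called lower there. HLA-E went from 3838 to 2138 normalized counts (log2 fold change -0.84, DESeq2 adjusted p 9.79e-52), per the authors' deposited table and levels computed from it. HLA-F had a log2 fold change of -0.98 (DESeq2 adjusted p 4.91e-11) per the authors' deposited table. In DMSO 3 class I genes were called higher and 2 lower, where 13.5% and 15.5% of all genes were, with a median of -0.03 per the authors' deposited table. The interaction was called below 0 for 3 of the 7, where 2.92% of all genes were. Among them were HLA-E at -0.52 and HLA-B at -0.35 (z test adjusted p 3.49e-09 and 0.0399). MHC class I genes have near-identical relatives, and how reads with several matches were counted is not given in the sources used here.

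Class II genes were low in these cells, and the 11 of 12 that were listed had means of at most 103 normalized counts. In DMSO, DESeq2 called 5 of 11 higher with siRFX7 and 0 lower (6 and 0 at an unadjusted p below 0.05), with a median log2 fold change of 1.34 per the authors' deposited table, where 13.5% of all genes were called higher. HLA-DRB1 went from 19.0 to 131.5 normalized counts and HLA-DOA from 6.7 to 27.5 (DESeq2 adjusted p 7.56e-26 and 2.89e-05), per the authors' deposited table and levels computed from it. In Nutlin-3a, where 15.0% of all genes were called higher and 13.6% lower, 4 of the 9 listed were called higher and HLA-DQB1 lower. Their median was 1.01 per the authors' deposited table, over fewer genes than in DMSO. The 5 class II genes called higher in DMSO had siControl levels of at most 19.0 normalized counts there, and the other 6 were not called. Whether these changes were tied to the level of RFX5 was not tested. Reads of HLA-DRB1 could also come from its near-identical paralogs, so its values are uncertain.

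Genes of the cilium, the known targets of RFX1, RFX2 and RFX3, were called with siRFX7 at shares near those of all genes. Of 44 listed, 5 were called higher and 7 lower in DMSO, where 13.5% and 15.5% of all genes were, and of 43 listed in Nutlin-3a, 4 were higher and 8 lower, where 15.0% and 13.6% were. The medians were -0.01 in both per the authors' deposited tables. IFT140 and ARL3 encode transport and trafficking proteins of the cilium, and BBS4 and TTC8 BBSome subunits. By the size of the statistic the first 4 in Nutlin-3a were these. IFT140 had a log2 fold change of -0.63, ARL3 of 0.52, BBS4 of 0.45 and TTC8 of -0.42 with siRFX7 in Nutlin-3a per the authors' deposited table. WDR19, named after its values were seen, had the lowest log2 fold change among the called ciliary genes there, at -0.75 (DESeq2 adjusted p 8.27e-06), per the authors' deposited table. The interaction was called above 0 for BBS4, at 0.49, and below 0 for CC2D2A, at -0.65 (z test adjusted p 0.00104 and 7.08e-06). No other ciliary gene was called by it, where 3.28% of all genes were called above 0 and 2.92% below. With Nutlin-3a in siControl 17 of 44 were called lower and 10 higher, against 21.2% and 22.0% of all genes, with a median of -0.18 per the authors' deposited table. FOXJ1, the ciliary regulator that acts with RFX factors, had a mean of 3.90 normalized counts.

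RFX7 targets known from work on this cell system formed the last list. It was written with knowledge of the published targets, which rest in part on these libraries, so its direction is not independent evidence. Of 18 genes 17 were listed. With siRFX7 in Nutlin-3a all 17 listed were called lower, where 13.6% of all genes were, with a median log2 fold change of -1.14. In DMSO 10 were lower, where 15.5% of all genes were, and 2 higher, where 13.5% were, with a median of -0.24. Both medians are per the authors' deposited tables. These genes include MXD4, a MYC antagonist, and PDCD4, a translation inhibitor. MXD4 changed by -3.01, PNRC1 by -2.43, PDCD4 by -2.06 and TSPYL2 by -2.55 in Nutlin-3a per the authors' deposited table. These 4 were named because they had the largest statistics of the list in that comparison. RFX5, at -2.20, lay within their range and below the median of the list. The interaction was called below 0 for 12 of the 17, where 2.92% of all genes were, with a median of -0.79.

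**Figure D4:**
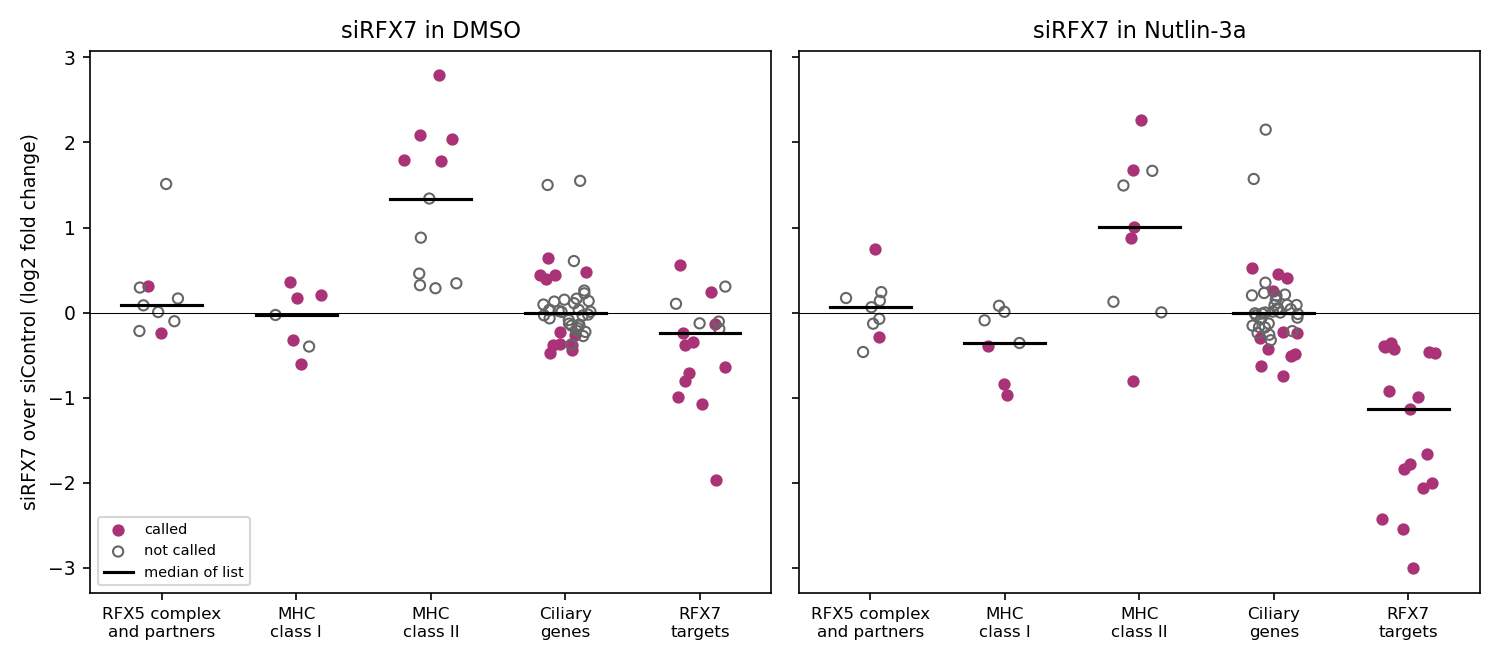
Log2 fold change of siRFX7 over siControl (vertical axis) for each listed gene of 5 lists, in DMSO (left) and Nutlin-3a (right), from the authors' deposited tables. Filled points were called at an adjusted p below 0.05, open points were not, and the black line is the median, which for the RFX7 targets went from -0.24 to -1.14. For MHC class II genes it was 1.34 over the 11 listed in DMSO and 1.01 over the 9 listed in Nutlin-3a. These class II medians are not over the same genes.

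The genes whose 3 independent log2 fold changes lay nearest to those of RFX5, by Euclidean distance among 12463 genes with a mean of at least 100, were PNRC1 (distance 0.49), PDCD4 (0.60), SLC43A2 (0.64), CCNG2 (0.78) and MAML3 (0.87). The first 3 of these are on the RFX7 target list. That list rests in part on these same libraries, so their nearness to RFX5 is not independent evidence. CCNG2, which encodes cyclin G2, had log2 fold changes of 0.999 with Nutlin-3a in siControl, -0.63 with siRFX7 in DMSO and -1.68 with siRFX7 in Nutlin-3a per the authors' deposited tables. Of these, MAML3 was closest to RFX5 in its siRFX7 effect in DMSO, -0.31, but changed less with siRFX7 in Nutlin-3a, -1.33, per the authors' deposited tables. Nearest to RFX7 were DDIT4 (0.58), an mTOR brake, B4GALT3 (0.88) and DOC2B (1.30). With siRFX7, DDIT4 changed by -1.97 (DMSO) and -1.78 (Nutlin-3a) on the log2 scale per the authors' deposited tables. The other members had close neighbours, among them RSBN1 and NONO for RFX1 (up to 0.04), CEP85, GJC1 and NFIL3 for RFX2 (up to 0.09), and EIF3H, KMT2C and SPEG for RFX3 (up to 0.03). These distances cover 4 group means and describe likeness over few conditions.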

How the data were processed

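PolyA RNA from 12 HCT116 libraries, 3 in each of 4 groups, was analysed from the authors' 4 DESeq2 tables. Tools named in the submitters' processing notes are bcl2fastq 2.20.0.422, Trimmomatic 0.39, FastQC 0.11.9, cutadapt 2.10, SAMtools 1.10, Picard, featureCounts 1.6.5 and DESeq2 1.20.0, with build hg38. The annotation and the settings for strand and multiple matches are not given in the sources used here. The deposited mean normalized count is a signal, counts over size factors, per the file headers. Fold changes and standard errors are deposited on the log2 scale, the statistic is a deposited score (fold change over standard error), and each p-value, raw or adjusted, is deposited from the authors' Wald test, per the file headers.

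Fold changes of siRFX7 were taken as siRFX7 over siControl, since the 4 tables then closed to within 1.24e-14 (otherwise a median error of 0.374). A count test planned for the case of counts was not used, as the tables hold statistics, and the authors' test was taken as deposited. Group means were solved from the mean and the fold changes, taking 3 libraries per group, and their errors from the dispersion implied by the deposited standard errors with size factors of 1. The interaction and the mean siRFX7 effect were tested by z tests (numpy 2.4.6, scipy 1.17.1) with Benjamini-Hochberg adjustment over all genes, and the interaction test was tested on simulated data. Differences between groups on opposite corners of the design were chosen after seeing the data and have intervals only. Named genes followed a rule: the RFX genes, all RFX5 partners, at most 4 genes of each other list by the size of the statistic, and nearest genes by distance. Some genes that the rule names are not reported here. Members and lists were chosen with earlier results of these data known.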

Additional observations from a re-analysis of the deposited data

Results flagged for a closer look

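The Nutlin-3a response of RFX5 differed between siRFX7 and siControl by the test of the difference itself, with an interaction of -1.92 (z test adjusted p 1.26e-60), and it was the 1 difference called among the 5 RFX genes and the 9 partner genes. Over all genes 6.20% were called by that test. RFX5 rose in siControl and fell in siRFX7. The design compares siRFX7 with siControl only, and the part of siRNA effects outside RFX7 was not tested.

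The same test of the difference passed for other genes named here. Among the RFX7 targets the interaction was -2.01 for MXD4, -1.73 for SESN3, -1.71 for PNRC1, -1.69 for PIK3R3, -1.48 for TSPYL2, -1.26 for PDCD4, -1.03 for SLC43A2, -0.61 for TSPYL1 and -0.56 for IP6K2. Among MHC genes it was -1.15 for HLA-DQB1, -0.52 for HLA-E and -0.35 for HLA-B, and among ciliary genes -0.65 for CC2D2A and 0.49 for BBS4. It was -1.05 for CCNG2 and -1.02 for MAML3, which lay near RFX5 in their changes, -0.69 for MDM2 and -0.67 for the epithelial marker KRT19.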

How the results depend on the processing

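Of 125 values of single members under 5 alternatives, 106 kept their direction and their side of the threshold. Only scaling to equal totals alters a fold change, so direction could not change under the other alternatives. A value that was not called also cannot become called under a stricter cutoff. The count of 106 is thus in part fixed in advance. The log2 fold change of RFX3 with siRFX7 in DMSO, which was not called, turned from -0.05 to 0.0043 when groups were scaled to equal totals. An adjusted p of 0.01 left 1 member called lower with Nutlin-3a in siControl. Requiring an absolute log2 fold change of at least 0.58 left 2 members called with Nutlin-3a under siControl and 2 under siRFX7, 1 higher and 1 lower in each, 1 lower with siRFX7 in DMSO and 2 lower in Nutlin-3a. Bonferroni adjustment left 1 called lower with Nutlin-3a in siControl, 3 called in siRFX7 with 1 higher, and 2 lower with siRFX7 in Nutlin-3a. These alternatives are stricter by construction. The RFX5 interaction, the RFX7 knockdown and the effect of siRFX7 on RFX5 in Nutlin-3a kept their calls under all 5. The fall of RFX5 with Nutlin-3a in siRFX7, -0.44, lost its call at the minimum of 0.58, and its effect of siRFX7 in DMSO, -0.28, lost it there and under Bonferroni. No paired analysis was possible because the tables hold no values per library, and for the same reason leaving out a replicate, other size factors and other count tests were not run. Standard errors, with medians of 0.0869 to 0.0877 over genes with a mean of at least 100, limit what can be told apart.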

Other observations

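The X-box words GTTGCCA and GTTGCTA were also looked for in the promoter windows of the RFX7 targets. Of 17 targets with a window, 4 held a match: IP6K2, MXD4, REV3L and TSPYL1, against 8.21% of all 27305 genes with a window. A gene can have several windows. By window, 4 of the 31 windows of the targets held a match, against 6.75% of all 35116 windows. The MXD4 match had its first base 230 bases before the transcript start. The stretch shown is chr4:2262321-2262350, minus strand, with the word in capitals.
MXD4: caccacgtgctGTTGCTAagctcgggcttc
None of the 6 RFX5 partners with a window held a match. MXD4 was the target with the lowest log2 fold change with siRFX7 in Nutlin-3a, at -3.01 in the authors' deposited table, while PNRC1, PDCD4 and TSPYL2, which also fell there, held no match in their windows.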
